A study of Mus musculus with 50 samples.

Results

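Messenger RNA decay was compared between mouse embryonic stem cells that lack all 3 of the genes Ythdf1, Ythdf2 and Ythdf3 (Triple_KO) and cells that lack only 1 of them (Ythdf1_KO, Ythdf2_KO and Ythdf3_KO). The comparison used 32 of the 50 libraries in the series, namely the 0 h and 8 h libraries of the 4 knockout genotypes, and it covered 9078 genes. The decay value of a gene was log2 of its level at 8 h over its level at 0 h of actinomycin D, a drug that blocks transcription, so that a gene with a negative value lost RNA relative to the rest of the library. The decay difference was the decay value in Triple_KO minus the mean of the decay values in the 3 single knockouts, each weighted equally. A positive difference therefore means that less of the transcript was lost in Triple_KO.

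All cells belonged to the KH2 line, with a C57BL/6 x 129/Sv background, and were kept in medium with serum and LIF. They were seeded on gelatin for 48 h and then given 5 µM actinomycin D. Each genotype had replicates A and B, with 2 duplicate libraries of each at 0 h and 8 h and 1 at 4 h. WT libraries of the same design gave a reference for normal decay. The labels give neither the number of clones behind a genotype nor the edited part of each gene, and whether A and B are separate cultures is not given. Reads counted replicate A against replicate B differed by a chi-square per degree of freedom of 1.36 (median of 32 pairs of libraries), against 1.41 for duplicate libraries of 1 replicate (median of 16 pairs), so the p-values may measure technical spread only.

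YTHDF proteins read N6-methyladenosine (m6A), a methyl mark that is placed on adenosines of mRNA, mostly in a short sequence context around GGAC. The mark is densest near stop codons and in long exons, and exon junctions are known to keep it away from nearby sequence. The 3 paralogs share the YTH domain that holds the mark, and they are known to recruit deadenylases, which shorten the poly(A) tail and start decay. The question behind the design, from its title, is compensation among the readers, and a transcript that decays normally when 1 reader is missing but slowly when all are missing is the pattern that question concerns.

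The values were reads counted near the 3′ end and expressed as FPM, that is, scaled to the library's total reads (the same unit as RPM). Library totals ran from 796921 to 2341410 reads. At 8 h the Triple_KO libraries (1365470 to 1698700 reads) were all deeper than the single knockout libraries (796921 to 1309260 reads), whereas at 0 h the ranges overlapped (1630470 to 2076140 against 1369330 to 2341410). Among stem cell markers, Pou5f1 stood between 698 and 986 FPM in the knockout genotypes, Sox2 between 8.85 and 143 FPM, and Zfp42 between 10.2 and 124 FPM, but Nanog was close to 0 throughout (0 to 3.10 FPM). The fibroblast collagen gene Col1a1 was also detected, at 36.7 to 58.2 FPM in Triple_KO, 25.8 to 41.3 FPM in Ythdf1_KO, 9.56 to 19.5 FPM in Ythdf2_KO and 15.0 to 33.2 FPM in Ythdf3_KO. Reads at the 3′ end do not check a knockout whose edit lies elsewhere in the gene.

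Relative to library totals, most genes had a higher decay value in Triple_KO. Without further scaling, 88.4% of the 9078 genes had a positive decay difference, and its median was 0.42 on the log2 scale. In limma's test with Benjamini-Hochberg adjustment, 1541 genes (17.0%) were called higher in Triple_KO and 4 (0.0441%) lower. Both Triple_KO decay values lay above all 6 values of the single knockouts in 3040 genes (33.5%), and both lay below them in 41 (0.452%).

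This general shift moved with the share of each library that fell into the listed genes. At 0 h the listed genes took 43.7% and 44.0% of the reads in Triple_KO and between 42.6% and 43.4% in the single knockouts. At 8 h they still took 40.4% and 40.7% in Triple_KO, but 33.7% and 32.3% in Ythdf1_KO, 30.08% and 30.01% in Ythdf2_KO, and 29.9% and 30.5% in Ythdf3_KO. The Triple_KO replicates did not overlap the others, and log2 of the 8 h share over the 0 h share was 0.36 higher in Triple_KO. An exact two-sided permutation test of the 2 Triple_KO against the 6 single knockout replicates gave p = 0.0714, the smallest value that the 28 possible assignments allow. The test treats all replicates as independent, although the 6 are A and B of 3 genotypes and may not be separate cultures. Its p therefore does not measure the spread between genotypes. FPM is relative to the library total, so a smaller general loss of mRNA and a smaller rise of the unlisted reads cannot be told apart.

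The differences were therefore also expressed relative to the median gene, which lowered the median difference from 0.42 to 0.02. On this scale 117 genes (1.29%) were called higher in Triple_KO and 37 (0.408%) lower by limma, with 862 genes under an unadjusted p of 0.05. All 117 were also called higher without scaling, whereas only 3 of the 37 lower genes were called lower without it, and 23 of the 37 had an unscaled difference above 0. The scaled decay values of the 2 Triple_KO replicates lay above all 6 of the single knockouts in 717 genes (7.9%) and below them in 479 (5.28%). The numbers called rested on both Triple_KO replicates: with only 1 of them, 498 or 537 genes passed without scaling and 26 or 25 with it. When the recovered reads were thinned to the depth of the smallest library, the unscaled median stayed at 0.41, but the calls dropped to 909 without scaling and 80 with it.

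**Figure D1:**
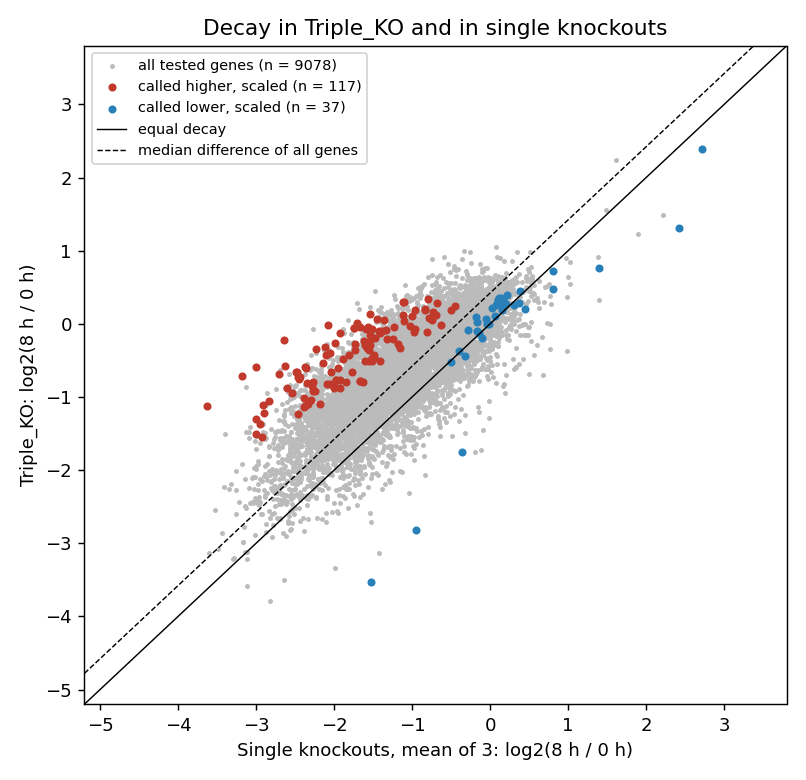
Decay value of each of the 9078 genes in the single knockouts (x axis, mean of the 3 genotypes, log2) and in Triple_KO (y axis, mean of replicates A and B, log2), without scaling. The 117 genes called higher after scaling to the median gene (red) all have negative decay values in single knockouts, and most of the 37 called lower (blue) sit near or above 0 on the x axis.

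Most of the 117 genes were unstable transcripts in WT. Their decay value had a median of -1.73 in the single knockouts and -1.70 in WT, but -0.42 in Triple_KO. The 37 lower genes, Gadd45g among them, had medians of 0.09 in the single knockouts, 0.20 in WT and 0.22 in Triple_KO. In all genes tested the WT median was -0.81.

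The 12 genes with the largest decay differences encode proteins of very different roles. To show the sequence context that m6A readers are known for, the GGACT nearest to the stop codon is given below for 6 of them, from GENCODE M21 transcripts on GRCm38, 5′ to 3′ on the transcript strand, with the motif in capitals. It was searched on the transcript strand only, within 200 nt of the stop codon.
Commd5, coding, chr15:76901063-76901087 (+): gcaaactgcaGGACTgaaccctggt
Sac3d1, coding, chr19:6116199-6116223 (-): ctctgaggaaGGACTcccaccccct
Pym1, coding, chr10:128766059-128766083 (+): aggagctggaGGACTtggagttggg
Imp3, coding, chr9:56937979-56938003 (+): tcacctgggtGGACTcatccaagat
Tigar, 3′ UTR, chr6:127087824-127087848 (-): ctgaagggagGGACTtggcctctgc
Chrac1, 3′ UTR, chr15:73093757-73093781 (+): gcagtggaaaGGACTggacagcagc
Such a GGACT was found in 10 of the 12 genes, in all but Rab9 and Jagn1, and in 70 of the 110 scaled higher genes with a coding transcript (63.6%), against 40.5% of all coding transcripts tested. A match is a description of the sequence and says nothing about methylation in these cells.

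Commd5, a member of the COMMD family of endosomal trafficking proteins (chromosome 15, 76899941 to 76901297), had the largest difference. In Triple_KO it stood at 66.9 and 73.4 FPM at 0 h and still at 56.3 and 64.8 FPM at 8 h. In the 6 single knockout replicates it went from 30.5 to 49.7 FPM (median 35.8) down to 3.92 to 6.54 FPM (median 5.34). The Triple_KO values were thus above every single knockout value at both times, and the gap widened with time. The decay values were -0.25 and -0.18 in Triple_KO and -3.37 to -2.39 in the single knockouts, a difference of 2.42 ± 0.32 (SE, limma adjusted p = 1.98e-08), or 2.02 ± 0.32 after scaling (adjusted p = 8.89e-06).

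Imp3, a component of the U3 small nucleolar ribonucleoprotein that acts in ribosome assembly, is encoded by a single exon (chromosome 9, 56937500 to 56938398). In Triple_KO it was 115 and 136 FPM at 0 h and 118 and 112 FPM at 8 h. In the single knockouts it fell from a range of 80.3 to 114 FPM (median 91.8) to one of 20.6 to 30.4 FPM (median 23.3). The Triple_KO levels lay above all single knockout levels at both times, narrowly at 0 h and widely at 8 h. Its decay difference was 1.805 ± 0.17 (adjusted p = 4.66e-13) and 1.40 ± 0.17 after scaling (adjusted p = 2.27e-08).

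Tigar, a p53-induced regulator of glycolysis (chromosome 6, 127085116 to 127109552), began at overlapping levels. It was 22.8 and 28.5 FPM in Triple_KO and 18.7 to 26.3 FPM (median 20.9) in the single knockouts at 0 h. At 8 h it was 21.4 and 29.7 FPM in Triple_KO but 2.65 to 8.15 FPM (median 4.04) in the single knockouts. The groups overlapped at 0 h and were apart at 8 h, and the difference was 2.07 ± 0.39 (adjusted p = 4.7e-05).

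Sac3d1, which has been linked to centrosome duplication, went from 58.9 and 57.8 FPM to 42.1 and 35.6 FPM in Triple_KO. The single knockouts went from 30.2 to 40.8 FPM (median 38.4) to 4.28 to 6.81 FPM (median 5.03). The groups were apart at both times, and the difference was 2.05 ± 0.30 (adjusted p = 2.29e-07).

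Rab9, a small GTPase of the route from late endosomes to the Golgi apparatus, went from 51.5 and 44.5 FPM to 32.0 and 26.9 FPM in Triple_KO. In the single knockouts the 0 h values were 33.9 to 45.8 FPM (median 36.0) and the 8 h values 3.41 to 6.90 FPM (median 5.84). Its groups overlapped at 0 h only. The difference was 2.02 ± 0.32 (adjusted p = 2.53e-06).

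Pym1 encodes a factor that takes the exon junction complex off mRNA. It went from 44.3 and 41.3 FPM to 40.7 and 27.4 FPM in Triple_KO, and from 28.4 to 42.8 FPM (median 35.2) to 5.51 to 9.71 FPM (median 7.45) in the single knockouts. The groups overlapped at 0 h and not at 8 h. The difference was 1.89 ± 0.30 (adjusted p = 1.9e-06).

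Rpp25l, a homologue of a subunit of the ribonucleases P and MRP, and Phax, an adaptor that carries small nuclear RNA out of the nucleus, shared higher starting levels in Triple_KO. Rpp25l went from 79.5 and 85.4 FPM to 49.7 and 56.1 FPM in Triple_KO, and from 38.5 to 56.0 FPM (median 43.9) to 5.73 to 9.47 FPM (median 7.71) in the single knockouts. Phax went from 101.1 and 88.8 FPM to 47.6 and 39.9 FPM in Triple_KO, and from 49.9 to 61.1 FPM (median 55.1) to 5.43 to 9.07 FPM (median 6.54) in the single knockouts. Neither gene overlapped at either time. The differences were 1.82 ± 0.31 for Rpp25l (adjusted p = 9.25e-06) and 1.805 ± 0.28 for Phax (adjusted p = 9.35e-07).

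The other 4 of the 12 were Jagn1, which acts in the secretory pathway, Chrac1, a histone-fold subunit of a chromatin remodelling complex, the mitochondrial ribosomal gene Mrpl43, and Taf5l, a subunit of a histone acetyltransferase complex. Their decay values were -0.44 and -0.87 in Triple_KO for Jagn1, against -3.38 to -1.96 in the single knockouts. For Chrac1 they were -0.51 and -0.13 against -2.87 to -1.12. Mrpl43 gave -0.74 and -0.43 against -3.09 to -1.47, and Taf5l gave -0.99 and -1.12 against -4.06 to -2.13. That these values did not overlap was a condition for naming the genes. The differences ran from 1.78 ± 0.35 for Taf5l (adjusted p = 0.000114) to 1.83 ± 0.37 for Jagn1 (adjusted p = 0.000188).

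In all, 108 genes met the same conditions as these 12, with differences from 0.61 to 2.42 and a median of 1.30. The standard errors of the 12 are large beside the steps between most neighbours, so their exact order carries little weight. Of the scaled calls of the 12 at 8 h, those of Commd5 and Imp3 held in every alternative tried. Leaving out Triple_KO replicate A ended the other 10, leaving out replicate B ended 8 (all but those of Commd5, Imp3, Sac3d1 and Pym1), and thinned reads ended those of Tigar, Jagn1, Chrac1 and Taf5l. The mean without Ythdf2_KO ended the calls of Jagn1, Chrac1 and Taf5l, and that of Chrac1 was also lost without Ythdf3_KO and with a replicate block within genotype. Leaving out a replicate of a single knockout ended a call only in Jagn1 (Ythdf1_KO A or Ythdf2_KO B) and Chrac1 (Ythdf1_KO B, either of Ythdf2_KO, or Ythdf3_KO B).

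**Figure D2:**
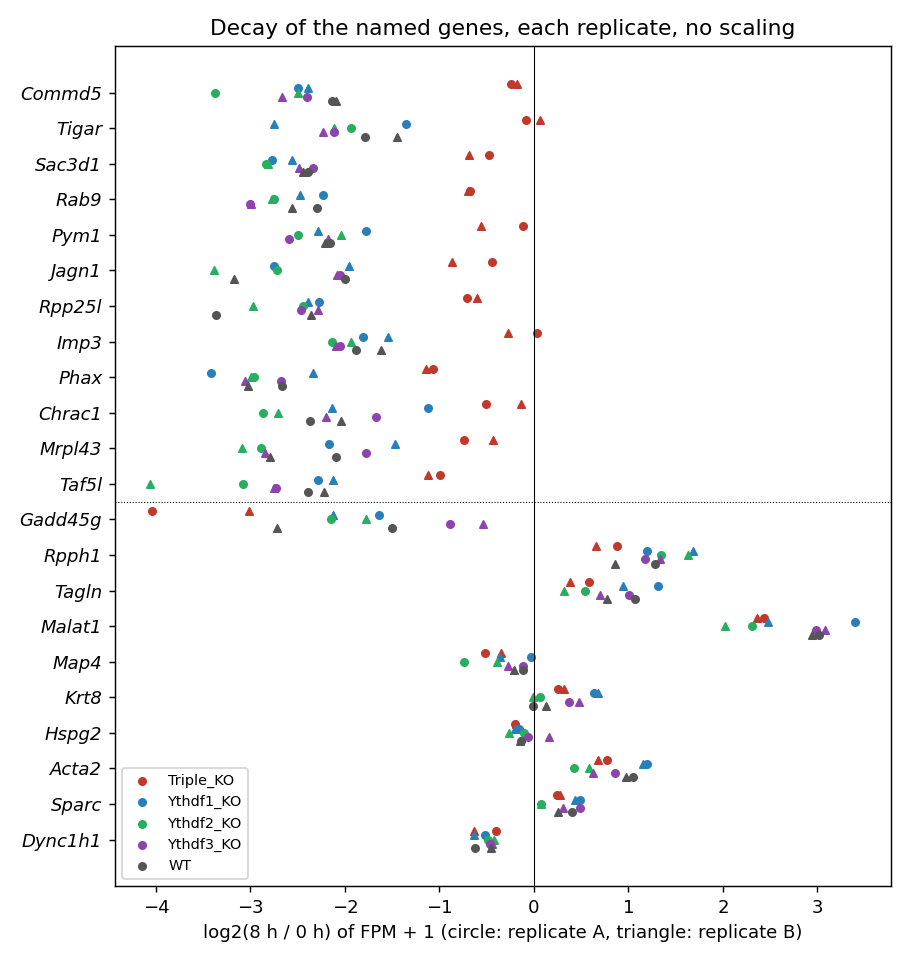
Decay values (x axis, log2 of 8 h over 0 h, FPM + 1, no scaling) of the 12 genes with the largest positive differences (above the dotted line) and of the negative genes named in the text (below it), 1 point per replicate, coloured by genotype. In the upper 12 both Triple_KO points lie to the right of all 6 single knockout points, which was a condition for naming them. The WT points fall among or near the single knockouts.

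At 4 h fewer genes passed. Without scaling 164 genes (1.81%) were called higher in Triple_KO and 0 (0.0%) lower by limma at 4 h, where 52 were lower at an unadjusted p under 0.05, and the median was 0.23. After scaling the counts were 49 (0.54%) higher and 34 (0.375%) lower. The 4 h values come from 1 library per replicate and share the 0 h libraries with the 8 h values. At 4 h Commd5 stood at 67.5 and 83.1 FPM in Triple_KO and at 4.02 to 20.1 FPM (median 11.8) in the single knockouts, a difference of 1.83 in decay value (adjusted p = 0.00011). Imp3 stood at 117 and 119 FPM against 38.6 to 77.1 FPM (median 44.6), a difference of 0.80 (adjusted p = 0.00314). After scaling Commd5 still passed at 4 h (1.64, adjusted p = 0.00121), but Imp3 did not (0.61, adjusted p = 0.0676). Tigar did not pass on either scale (adjusted p = 0.0944 and 0.297).

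**Figure D3:**
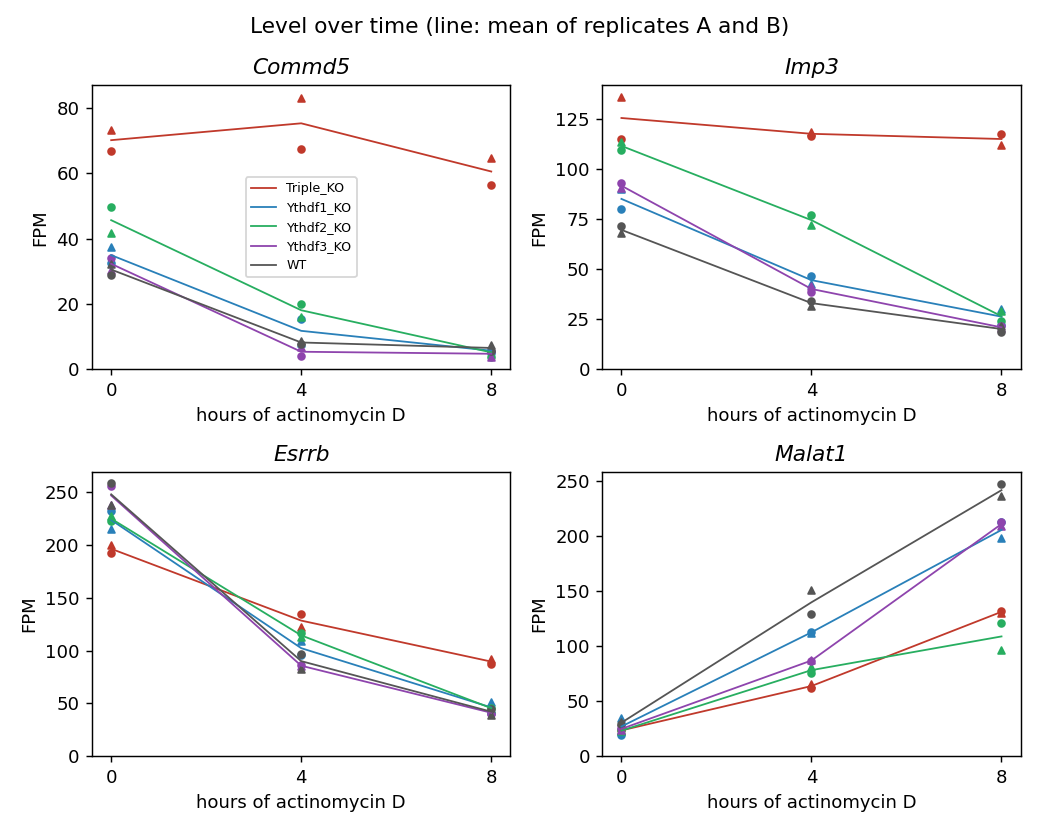
Level in FPM (y axis) at 0, 4 and 8 h of actinomycin D (x axis) for Commd5, Imp3, Esrrb and Malat1, with 1 point per replicate and a line through the mean of each genotype. Commd5 and Imp3 stay nearly level in Triple_KO and fall in the other 4 genotypes, Esrrb starts lower and ends higher in Triple_KO, and Malat1 rises in every genotype.

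The levels behind the decay differences were compared as well. At 0 h 362 genes (3.99%) were called higher in Triple_KO than in the mean of the single knockouts and 270 (2.97%) lower without scaling, and 233 (2.57%) higher and 510 (5.62%) lower after it. At 8 h 3943 (43.4%) were higher and 92 (1.01%) lower without scaling, and 840 (9.25%) higher and 932 (10.3%) lower after it. Scaling sets the median difference near 0, so a general excess of higher levels cannot show on that scale. Among the 12 leading genes, Commd5, Sac3d1, Rpp25l, Imp3, Phax and Mrpl43 were also higher in Triple_KO at 0 h without scaling, by 0.91, 0.64, 0.84, 0.39, 0.76 and 0.85 on the log2 scale (limma adjusted p = 0.00139 to 0.047). All 12 were higher at 8 h, by 2.13 for Pym1 to 3.33 for Commd5. The decay difference of such a gene is the 8 h difference less the 0 h difference, so the 3 are not independent measurements.

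Each single knockout was also compared alone with Triple_KO. These 3 comparisons share the Triple_KO libraries. Without scaling, 487 genes (5.36%) differed from Ythdf1_KO, 1323 (14.6%) from Ythdf2_KO and 1152 (12.7%) from Ythdf3_KO, with medians of 0.34, 0.49 and 0.43. After scaling the counts were 43 (0.474%), 124 (1.37%) and 121 (1.33%), and the medians 0.02, 0.01 and 0.02. For Commd5 the differences were 2.23 from Ythdf1_KO, 2.72 from Ythdf2_KO and 2.32 from Ythdf3_KO, and for Imp3 they were 1.55, 1.91 and 1.95. For Taf5l they were 1.15, 2.51 and 1.68, and for Mrpl43 1.23, 2.40 and 1.73. Commd5 and Imp3 thus stood off from all 3 genotypes by a similar amount, and Taf5l and Mrpl43 less from Ythdf1_KO, although limma's test of the spread among the single knockouts did not pass for either (adjusted p = 0.64 and 0.551).

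Few genes differed in decay among the single knockouts. A joint test of their scaled decay values passed in 33 genes (0.364%), with 575 under an unadjusted p of 0.05. Of the 33, 18 encode proteins of the cytosolic ribosome, a list with 82 of the 9078 genes tested. In 17 of those 18 the lowest unscaled decay value was that of Ythdf3_KO. How often Ythdf3_KO was lowest over all genes was not counted, and the number of ribosomal genes was not matched for level. Scaling shifts each genotype by its own amount, so the order of genotypes can differ on the scale of the test. Rps20, for instance, had unscaled mean decay values of 0.04, 0.09 and -0.18 in the 3 single knockouts in order, against 0.32 in Triple_KO (adjusted p of the spread = 3.03e-07). Slc2a1, the main glucose transporter of growing cells, gave unscaled values of -0.80, -1.77 and -1.67 in the same order and -0.50 in Triple_KO (adjusted p of the spread = 8.57e-05). The mean of the 3 single knockouts differed from WT in 7 genes (0.0771%) without scaling, with a median of -0.06.

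The targeted genes were themselves called higher in decay value in Triple_KO without scaling. Ythdf2 stood at 82.4 and 89.9 FPM at 0 h and 43.3 and 47.4 FPM at 8 h in Triple_KO. The single knockouts went from 32.4 to 72.2 FPM (median 53.2) to 7.29 to 12.7 FPM (median 10.2). The groups did not overlap at either time, and the difference in decay was 1.33 ± 0.26 (adjusted p = 0.000106), or 0.92 ± 0.26 after scaling (adjusted p = 0.0434). The scaled call of Ythdf2 was lost with thinned reads and in several of the fits without 1 replicate. Ythdf1 had decay values of -0.73 and -1.07 in Triple_KO against -2.52 to -1.48, a difference of 1.25 ± 0.27 (adjusted p = 0.000355), which did not pass after scaling (0.85, adjusted p = 0.0946). Ythdf3 had a difference of 1.02 ± 0.34 (adjusted p = 0.0265), also not called after scaling (0.62, adjusted p = 0.609). Each single knockout carries an edit in 1 of these genes and Triple_KO in all 3, so the values mix edited and intact messages.

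The m6A machinery was taken as readers, and as writers and erasers. Of 13 reader genes tested, 4 (30.8%, against 17.0% of all genes) were called higher without scaling, namely Ythdf1, Ythdf2, Ythdf3 and Hnrnpa2b1, and 1 (7.69%, against 1.29%), Ythdf2, after it, and the median was 0.37 without scaling. All of these but Hnrnpa2b1 are the edited genes, whose values mix edited and intact messages. The shares therefore do not describe readers at large. Hnrnpa2b1, a nuclear RNA-binding protein, had an unscaled difference of 0.38 and Igf2bp1, which is known to stabilise methylated mRNA, one of -0.07. Of 12 writer and eraser genes, 2 (16.7%, close to the 17.0% of all genes) were called without scaling, namely Rbm15b (1.33, adjusted p = 0.0118) and Mettl16 (1.04, adjusted p = 0.00547), a subunit of the methyltransferase complex and a separate methyltransferase. After scaling limma called 0 of the 12, with 2 higher at an unadjusted p under 0.05 and 1 called by edgeR and by DESeq2, and the median was 0.43 against 0.02 in all genes. Wtap, another subunit of the writer complex, had an unscaled difference of 0.50 (adjusted p = 0.263).

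Genes of the mitochondrial ribosome often passed. Of 70 tested, 39 were called higher without scaling and 10 after it, that is 55.7% and 14.3% against 17.0% and 1.29% of all genes. Their median was 0.69 without scaling and 0.28 after it, and 61 of the 70 scaled values were above 0. The shares were not matched for level. In the fifth of all genes with the highest mean FPM, 946 of 1816 were called higher without scaling and 74 after it. The 10 included Mrpl43, Mrpl46 and Mrps23, with scaled differences of 1.38, 1.28 and 1.28, and they held subunits of both the large and the small part of the particle. Mrpl12, which binds the translation factors of the organelle, went from 292 and 345 FPM to 310 and 353 FPM in Triple_KO. In the single knockouts it fell from 211 to 248 FPM (median 221) to 71.7 to 110 FPM (median 87.8). The levels of Mrpl12 were apart at both times, and its scaled difference was 1.01 ± 0.11 (adjusted p = 6.84e-10). Mrpl51 gave 0.88 ± 0.17 (adjusted p = 0.000628), while Mrpl52 gave 0.10 ± 0.13 (adjusted p = 0.934). At 0 h 14 of the 70 genes were higher in Triple_KO without scaling (against 3.99% of all genes), and the median 0 h difference of the 70 was 0.25. Limma called 0 of the 70 lower on either scale, with 0 lower at an unadjusted p under 0.05 and 0 by edgeR, or by DESeq2 after scaling.

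Cytosolic ribosomal protein genes, whose messages are among the most stable in the cell, followed the median gene. Of 82 tested, 74 (90.2%, against 17.0%) passed without scaling, at a median of 0.38, but only Rpl36al (higher, 0.56 ± 0.07, adjusted p = 6.3e-08) and Rplp2 (lower, -0.18 ± 0.05, adjusted p = 0.0341) passed after it, when the median was -0.02. Among 47 translation factors 3 (6.38%, against 1.29% of all genes) were called higher after scaling and 3 lower (against 0.408% of all genes). The higher ones were Eif1a (1.18 ± 0.22, adjusted p = 0.000404), Eif2b2 and Eef1b2, and the lower ones Eef2 (-0.14 ± 0.03, adjusted p = 0.0155), Eif5a and Pabpc1. Eif1a, which helps the small ribosomal subunit scan for the start codon, had decay values of -0.87 and -1.02 in Triple_KO against -3.07 to -1.92 in the single knockouts. With no filter on low values the scaled differences of Eef2, Eif5a, Pabpc1 and Rplp2 turned positive (0.20, 0.11, 0.12 and 0.16). Eef1a1, an elongation factor, had a scaled difference of 0.00 ± 0.03. Of 73 nuclear-encoded genes of oxidative phosphorylation, 40 (54.8%, against 17.0% of all genes) were called without scaling, such as Atp5b (0.34 ± 0.05, adjusted p = 1.5e-06), and 0 after it. At an unadjusted p under 0.05, 1 was higher and 2 lower, edgeR called as many, and DESeq2 called 0.

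Several pluripotency genes are known m6A targets. Of 31 genes of the naive state, 17 (54.8%, against 17.0% of all genes) were called higher without scaling, at a median of 0.56, and 1 (3.23%, against 1.29%) after it, at a median of 0.16. That 1 was Esrrb, a nuclear receptor that maintains self-renewal. It stood at 193 and 200 FPM at 0 h and 87.2 and 92.2 FPM at 8 h in Triple_KO. In the single knockouts it went from 215 to 256 FPM (median 230) to 39.8 to 51.8 FPM (median 43.9). Esrrb was thus below every single knockout replicate at 0 h and above every one at 8 h, and its decay difference was 1.25 ± 0.13 (adjusted p = 1.87e-11), or 0.85 ± 0.13 after scaling (adjusted p = 8.51e-06). The shares of this list and of the other lists were not matched for level. In the fifth of all genes with the highest mean FPM, 946 of 1816 were called higher without scaling and 4.08% after it.

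Of 26 core pluripotency genes 12 (46.2%, against 17.0% of all genes) were called without scaling, at a median of 0.53. After scaling 1 (3.85%, against 1.29%) was called, Sall4 (0.65 ± 0.16, adjusted p = 0.00987), at a list median of 0.12. Pou5f1 gave 0.31 ± 0.06 without scaling (adjusted p = 0.000126) and -0.10 ± 0.06 after it (adjusted p = 0.723), and Dppa5a gave 0.23 and -0.17 (adjusted p = 0.072 after scaling). These 2 abundant stem cell genes therefore changed sign with the scale. Of 37 transcripts that have been described as methylated in mouse stem cells, 14 (37.8%, against 17.0% of all genes) were called without scaling. After scaling 2 (5.41%, against 1.29%) were called, Esrrb and Sall4. The median of the list was 0.62 without scaling, against 0.42 in all genes, and 0.22 after it. These transcripts decayed fast in WT (median -2.07). The fastest of 5 equal classes of all genes by WT decay (median -2.08) had the same medians, 0.62 and 0.22. In that class 340 of 1816 genes were called higher without scaling and 60 after it. In 18 genes of the LIF pathway the median was 0.66 and 3 (16.7%, close to the 17.0% of all genes) were called, among them Klf4 (0.98 ± 0.23, adjusted p = 0.000988) and the LIF co-receptor Il6st (1.24 ± 0.42, adjusted p = 0.0295). After scaling limma called 0 of the 18, with 2 higher at an unadjusted p under 0.05, 1 called by edgeR and 0 by DESeq2.

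Among 47 immediate-early and short-lived regulators 7 (14.9%, near the 17.0% of all genes) were called higher without scaling and 1 lower, and the median was 0.55. Mcl1, an inhibitor of apoptosis with a short half-life, had decay values of -1.18 and -1.28 in Triple_KO against -2.72 to -2.26 in the single knockouts, and a scaled difference of 0.83 ± 0.23 (adjusted p = 0.0351). That call was lost with any 1 of the single knockout genotypes left out, with thinned reads and in most fits without 1 replicate. Klf2 had an unscaled difference of 0.78 ± 0.19 (adjusted p = 0.00179) and was not called after scaling. Of 47 mitotic genes 2 (4.26%, against 1.29% of all genes) passed after scaling, Birc5, a subunit of the chromosomal passenger complex (0.42 ± 0.09, adjusted p = 0.00227), and Ccnf (0.63 ± 0.16, adjusted p = 0.0172). Of 55 decay factors 1 (1.82%) passed, the exosome subunit Exosc4 (1.06 ± 0.24, adjusted p = 0.00652), and Cnot8, a deadenylase of the CCR4-NOT complex, gave 0.87 ± 0.29 (adjusted p = 0.135).

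Single members of other lists passed after scaling, and with 1 higher call in 28 to 44 genes these counts lie near the 1.29% of all genes and say nothing about the lists. Psmd7, a subunit of the proteasome lid, gave 1.05 ± 0.13 (adjusted p = 5.91e-08) as the only one of 44 proteasome genes. The chaperone Hspa8 was higher (0.43 ± 0.06, adjusted p = 6e-07) and Hsp90ab1 lower (-0.21 ± 0.04, adjusted p = 0.000552) among 35 heat shock genes, although that of Hsp90ab1 turned to 0.13 with no filter on low values. Slc2a1 was higher among 28 glycolysis genes (0.51 ± 0.11, adjusted p = 0.00376), but its scaled difference was 0.79 from Ythdf2_KO, 0.76 from Ythdf3_KO and -0.02 from Ythdf1_KO (adjusted p = 0.997). The call was lost in the means without Ythdf2_KO or Ythdf3_KO and with thinned reads. The glycolytic enzyme Pkm gave -0.13 ± 0.04 (adjusted p = 0.0861). Eif4ebp1, an inhibitor of cap-dependent translation, was the only one called among 34 genes of the integrated stress response (0.28 ± 0.08, adjusted p = 0.044), with the stress factor Atf4 at 0.42 ± 0.12 (adjusted p = 0.0591). The call of Eif4ebp1 was lost with a pseudocount of 0.5 FPM, with thinned reads, in the means without Ythdf2_KO or Ythdf3_KO and in most fits without 1 replicate, and its scaled difference from Ythdf1_KO was 0.19 (adjusted p = 0.681). Tgif1 passed among 28 genes of the BMP, Nodal and TGF-beta pathways (0.97 ± 0.23, adjusted p = 0.0108), and Tigar among 33 p53 targets, where Phlda3 gave 0.53 ± 0.16 (adjusted p = 0.087). Of the scaled calls of list members given with values, those of Mrpl12, Rpl36al, Esrrb and Psmd7 held in every alternative tried at 8 h. Those of Sall4, Mcl1, Birc5, Ccnf, Exosc4, Slc2a1, Eif4ebp1, Tgif1, Eif1a, Rplp2 and Hsp90ab1 were lost with either Triple_KO replicate left out. The same held for Eif2b2, Eef1b2, Eef2, Eif5a, Pabpc1, Mrpl46 and Mrps23. Leaving out Triple_KO replicate B ended those of Mrpl51 and Hspa8. Duplicates averaged in FPM or thinned reads also ended those of Eef2 and Rplp2.

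**Figure D4:**
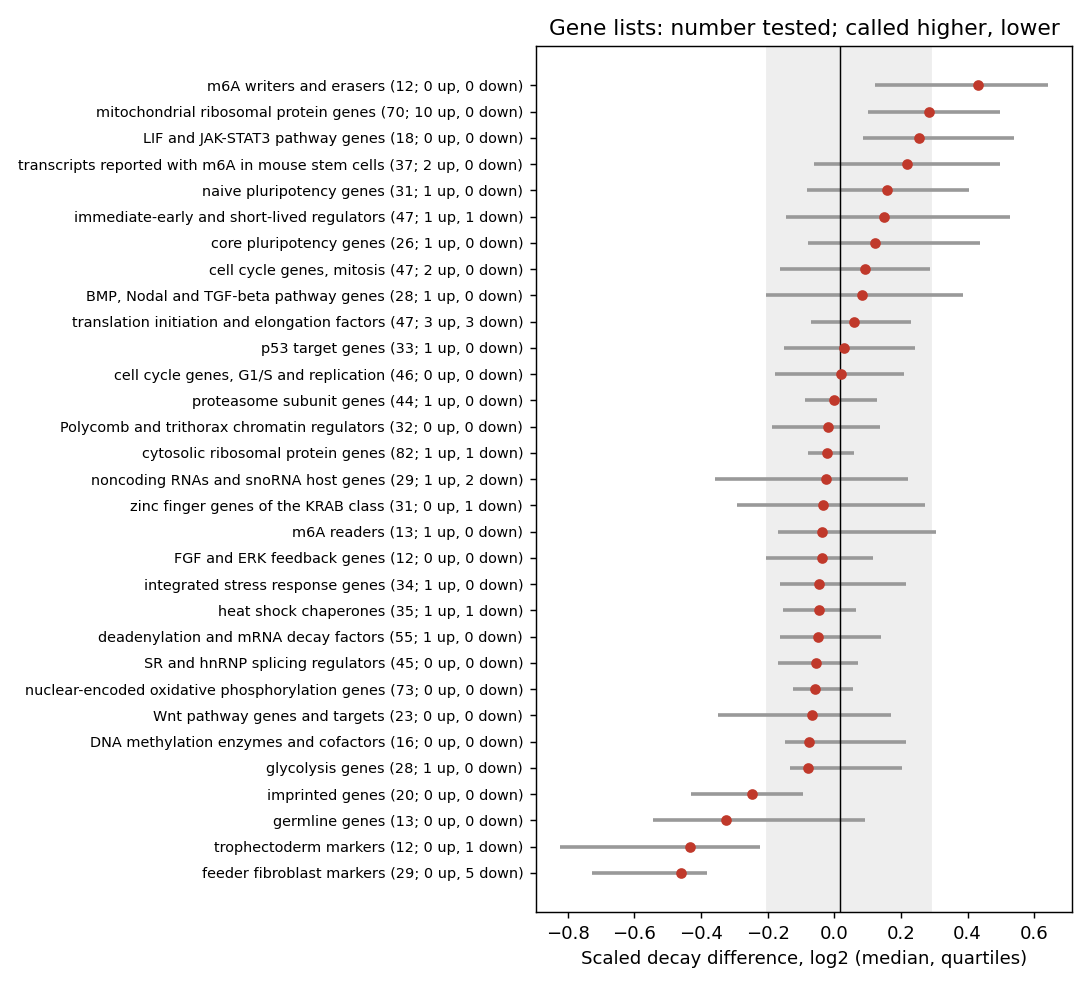
Scaled decay difference (x axis, log2) of each list with at least 10 genes tested, as the median (point) and quartiles (bar), with the number tested and called beside its name. The line and grey band mark the median and quartiles of all 9078 genes. Mitochondrial ribosomal genes and m6A writers lie to the right, and fibroblast and trophectoderm markers to the left.

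Fewer transcripts had lower values in Triple_KO. Without scaling the 4 lower genes were Gadd45g, Edem1, Obi1 and Zfp951, the last 3 of which were named after their values were seen, because no group reached a mean of 10 FPM. Gadd45g, a growth arrest gene with a very short-lived message, stood at 20.6 and 17.2 FPM at 0 h in Triple_KO and at 0.361 and 1.23 FPM at 8 h. In the single knockouts it went from 3.13 to 10.2 FPM (median 7.70) to 1.07 to 3.03 FPM (median 1.46). Its 8 h values overlapped and rest on few reads, while the 0 h values were higher in Triple_KO. The difference was -2.01 ± 0.56 (adjusted p = 0.00782). The unscaled differences of Edem1, Obi1 and Zfp951 were -1.39, -1.71 and -1.87 (adjusted p = 0.0452, 0.0468 and 0.0267). The calls of Edem1 and Obi1 were lost with a replicate block within genotype, no filter, a pseudocount of 0.5 FPM, thinned reads and most fits without 1 replicate. Of these genes edgeR called neither Obi1 nor Zfp951, and a pseudocount of 0.5 FPM also ended the call of Zfp951. All 4 were lost with Triple_KO replicate A left out, and the call of Gadd45g also with thinned reads or without Ythdf3_KO.

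The other most negative genes passed only after scaling. Those described here are 2 noncoding RNAs, Rpph1 and Malat1, and the coding genes Tagln, Map4, Krt8, Hspg2, Acta2, Sparc and Dync1h1, which encode parts of the cytoskeleton or of the extracellular space. With no filter on low values the scaled calls of all these genes were lost, as they were with either Triple_KO replicate left out. A replicate block ended that of Map4. Malat1, a nuclear noncoding RNA, rose from 23.6 and 23.4 FPM to 132 and 131 FPM in Triple_KO. The single knockouts rose from 19.2 to 34.9 FPM (median 23.7) to 96.4 to 213 FPM (median 204). The 8 h values of Triple_KO lay within the range of the single knockouts, above both Ythdf2_KO replicates and below the rest. The scaled difference was -0.72 ± 0.17 (adjusted p = 0.00708), and the unscaled one -0.32 ± 0.17 (adjusted p = 0.193).

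Rpph1, the RNA of ribonuclease P, was 8.66 and 6.82 FPM at 0 h and 17.1 and 11.3 FPM at 8 h in Triple_KO. The single knockouts held 8.21 to 25.4 FPM (median 18.1) at 0 h and 25.2 to 59.4 FPM (median 47.3) at 8 h. The groups were apart at 8 h, and the scaled difference was -1.03 ± 0.29 (adjusted p = 0.0461). Another noncoding RNA of the nucleus, Neat1, went the other way, with decay values of 0.28 and -0.02 in Triple_KO against -1.56 to -0.91 and a scaled difference of 0.83 ± 0.22 (adjusted p = 0.0256). The call of Neat1 was lost with thinned reads, in the means without Ythdf1_KO or Ythdf3_KO, and with either Triple_KO replicate left out.

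Tagln, an actin-binding protein of contractile cells, was 88.9 and 105 FPM at 0 h and 134 and 139 FPM at 8 h in Triple_KO, against 39.4 to 69.3 FPM (median 51.5) and 68.9 to 162 FPM (median 77.2) in the single knockouts. The levels were apart at 0 h and overlapped at 8 h. Its scaled difference was -0.73 ± 0.16 (adjusted p = 0.00326). Sparc, a secreted matrix protein, gave -0.46 ± 0.09 (adjusted p = 0.000533). The fibroblast marker list as a whole had 5 genes lower after scaling of 29 tested (among them Acta2, Lgals1, Sparc and Tagln), against 0.408% of all genes, and a median of -0.46. Limma called 0 higher after scaling, and 0 were higher at an unadjusted p under 0.05 or by edgeR or DESeq2.

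Without scaling, the same fibroblast genes had a median of -0.06, that is, nearly equal relative gains over time in both groups. Their summed level was 2011 and 2066 FPM at 0 h and 2471 and 2433 FPM at 8 h in Triple_KO. In Ythdf1_KO it rose from 1679 and 1721 FPM to 2472 and 2350 FPM, and in Ythdf3_KO from 1252 and 1282 FPM to 1568 and 1591 FPM, but in Ythdf2_KO it stayed at 1284 and 1270 FPM, then 1250 and 1272 FPM. Of the 40 markers, 1 to 6 were at 0 in a replicate. More of these cells and more RNA per cell cannot be told apart in bulk samples, and the part that such cells have in the lower genes was not tested. Trophectoderm markers gave 1 lower gene of 12 after scaling, Krt8, and primitive endoderm markers 1 of 9, Sparc, which the fibroblast list holds too. Of all genes 0.408% were called lower after scaling, and 1 gene says little about a list. In 20 imprinted and 13 germline genes limma called 0 on either scale. After scaling 0 and 2 of them were under an unadjusted p of 0.05, edgeR called 1 and 0, and DESeq2 called 0 of either.

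Decay in WT, measured in libraries that the comparison does not use, ordered the differences. With the genes cut into 5 equal classes by WT decay, the fastest class (median -2.08) had a median difference of 0.62 without scaling and 0.22 after it. In the following classes the scaled median was 0.16, 0.01, -0.03 and -0.11. The scaled higher calls numbered 60, 34, 19, 4 and 0 from the fastest to the most stable class, of 1815 or 1816 genes each, and the lower calls 1, 0, 0, 5 and 31. Most higher calls thus fell in the fast classes and most lower calls in the most stable one.

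Transcripts with few exons also had larger differences. In coding transcripts the unscaled median was 0.64 for the 165 genes with 1 exon, 0.64 for the 345 with 2, 0.55 for the 496 with 3, 0.47 for the 1313 with 4 or 5, 0.44 for the 2720 with 6 to 10, and 0.38 for the 3716 with 11 or more. The scaled higher calls made up 5.45%, 5.80%, 4.03%, 1.83%, 1.07% and 0.215% of these classes. WT decay moved with exon number, from a median of -1.67 with 1 exon to -0.79 with 11 or more. The order by exon number also held within the class of fastest WT decay, where genes with at most 2 exons had a scaled median of 0.37 and those with at least 11 had 0.11. In the next class the medians were 0.41 against 0.07, in the middle one 0.19 against -0.04, in the following one 0.04 against -0.08, and in the most stable one -0.10 against -0.15. Coding length went with the calls as well, and it was not separated from exon number. From the shortest to the longest of 5 equal classes, the scaled higher calls numbered 47, 27, 15, 17 and 4. The scaled medians were 0.03, 0.06, 0.06, -0.003 and -0.05. The median level was 22.3 FPM in the shortest class and 10.9 FPM in the longest.

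**Figure D5:**
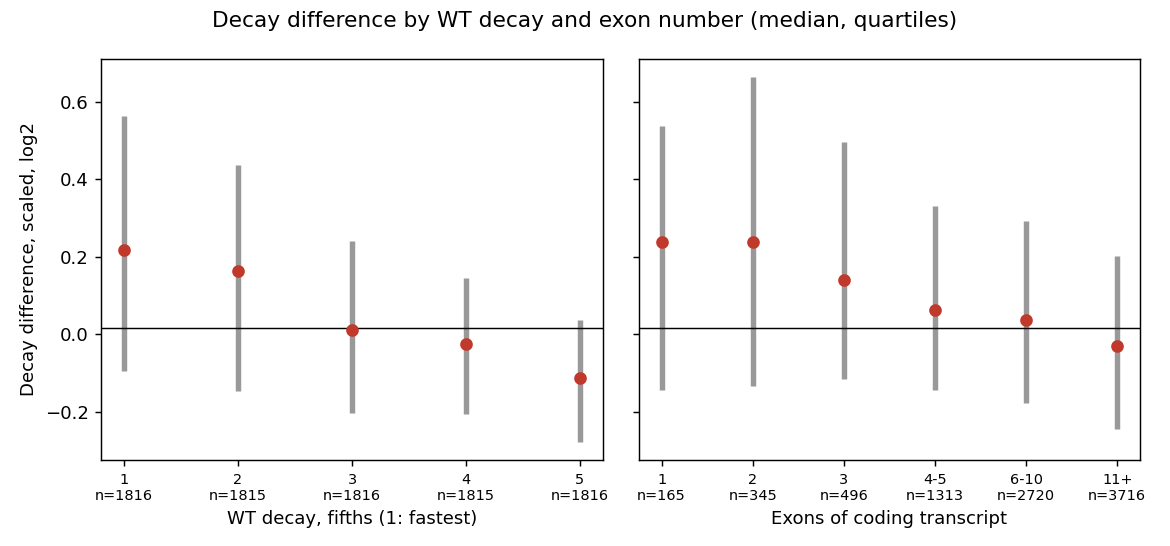
Scaled decay difference (y axis, log2; point, median; bar, quartiles) by class of WT decay (left, 5 equal classes, 1 is the fastest) and by number of exons of the coding transcript (right). The medians go down from 0.22 to -0.11 over the classes, and from 0.24 with 1 exon to -0.03 with 11 or more, while the quartile bars of neighbouring classes overlap.

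Other features went with smaller steps of the scaled median. From the class with the fewest GGACT per kb to that with the most, again of 5 equal classes, the scaled median was 0.00, -0.01, 0.00, 0.04 and 0.06, with 17, 10, 17, 28 and 38 higher calls. Genes with GGACT within 200 nt of the stop codon had a scaled median of 0.05 (3547 genes) and the rest 0.00 (5208 genes). An internal exon of at least 400 nt went with a scaled median of 0.06, against 0.00 in other genes with an internal exon. Length of the 3′ UTR, transcript GC content, the AU-rich motif TATTTAT and the Pumilio motif TGTANATA in the 3′ UTR all gave class medians within 0.05 of 0. Calls moved with some of these features too. From the lowest to the highest class of GC content the scaled higher calls numbered 8, 14, 27, 33 and 32. They made up 0.72% of genes with TATTTAT and 1.44% of those without it, and 0.65% and 1.44% for TGTANATA. Calls depended on level, since 74 of the 117 higher and 32 of the 37 lower genes were in the highest of 5 classes of mean FPM, although the scaled median of that class was -0.03. Without scaling, 946 of the 1816 genes of that class were called higher, against 7 of 1816 in the lowest class.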

How the data were processed

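RNA of the 50 libraries was measured by 3′ end poly(A) RNA-seq. The authors deposited FPM (the same unit as RPM), reads per transcript scaled to the library total. Bowtie2, CASAVA 1.8.2 and the mm10 build were used, per the submitters' processing notes, and handling of strand and multiple matches was not given in the sources used here. Names came from RefSeq (GRCm38.p6) or GENCODE M21 for all but 489 of 22338 transcripts. Transcripts with identical values were kept once (2169 repeats dropped), which gave 19455 genes, of which 2292 share values with another gene.

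Duplicates were averaged as log2(FPM + 1), which understates changes of low genes. Genes that reached 5 FPM in 2 or more replicate means were fitted with limma 3.58 (R 4.3, trend) on all 30 replicate means, with Benjamini-Hochberg adjustment over 9078 genes at 0.05. Scaling subtracted each replicate mean's median deviation. Dividing by the value of 1 read gave whole numbers for 100% of low values (tolerance 0.1), and on these recovered counts edgeR 4.0 called 2952 genes without scaling and 577 with TMM factors, and DESeq2 1.42 called 332. The fit was tested on simulated data.

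Named genes were the 12 largest differences per direction with an adjusted p under 0.05 with and without scaling, no overlap of Triple_KO with the single knockouts and a mean of 10 FPM in a group. Falls beyond Gadd45g met this after scaling alone. Some of these genes are not reported here. The readers and up to 4 members per list (2 smallest adjusted p, 2 highest FPM) were added, and further called list members were named after their values were seen. The comparison, the 36 lists and the genes were chosen with earlier results of these data known. Histone genes were listed but none was tested. Alternatives were other pseudocounts, filters, scalings and count tests, replicates or genotypes left out, replicate blocks, and thinned reads.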

Additional observations from a re-analysis of the deposited data

Results flagged for a closer look

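Among the 6 single knockout replicates, Commd5 had a decay value of -3.37 in Ythdf2_KO replicate A, and Rpp25l one of -2.98 in Ythdf2_KO replicate B. Both lie further below the other 5 than chance gives in about 1 of 20 such groups, and both rest on few reads at 8 h. The decay of 33 genes differed among the 3 single knockouts in limma's joint test of the scaled values. By unscaled values, 24 of them were lowest in Ythdf3_KO, and how often this held over all genes was not counted. No explanation was tested.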

How the results depend on the processing

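Numbers of genes called moved with the settings. Without scaling (1545 genes), TMM scaling gave 157 (139 higher, 18 lower, median 0.11), edgeR 2952, reads thinned to the smallest library (an alternative chosen after seeing the data) 909, and 4 h in place of 8 h 164. Scaled to the median gene (154 genes), DESeq2 gave 332, edgeR 577, a fit on the 16 replicate means of the contrast 276, no filter 783, a pseudocount of 5 FPM 265 and thinned reads 80. With no filter the spread among single knockouts gave 9 genes in place of 33, and Triple_KO against Ythdf1_KO, Ythdf2_KO and Ythdf3_KO gave 213, 573 and 619. With a pseudocount of 5 FPM these 3 gave 82, 197 and 244, and the 4 h difference 264. The causes of these moves were not tested. Leaving out 1 replicate gave 498 to 1512 genes without scaling, 25 to 152 scaled, 6 to 36 for the spread, 6 to 46, 30 to 140 and 35 to 125 against each single knockout, and 16 to 156 at 4 h. The lowest values for both 8 h differences and the 4 h difference came from leaving out a Triple_KO replicate, when the remaining sample is assumed to vary like the other groups.

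A replicate block gave 1550 genes without scaling and 155 scaled. Deviations of A from B at 0 h and at 8 h were not correlated within a knockout genotype (-0.011 to 0.0083). Because A and B differed no more than duplicate libraries did, these correlations cannot show whether the letters pair the samples.

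TMM scaling turned the sign of Dppa5a (-0.14), Pou5f1 (-0.065), Hsp90ab1 (-0.18), Pkm (-0.10), Atp5b (-0.0338), Rplp2 (-0.15), Rps20 (-0.0376), Eif5a (-0.21), Eef2 (-0.11) and Pabpc1 (-0.19). With no filter the scaled values of Hsp90ab1 (0.13), Rplp2 (0.16), Eif5a (0.11), Eef2 (0.20) and Pabpc1 (0.12) turned positive, as did Eef2 with a pseudocount of 5 FPM (0.0013). Low 8 h counts limit genes such as Gadd45g.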
